A study of Mus musculus with 13 samples.

Results

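The collagen-producing stromal cells of mouse colon tumors were studied as barcodes picked out of single-cell RNA libraries by their own transcripts. A barcode was taken when it held at least 500 unique molecular identifiers (UMIs, each standing for 1 captured transcript) and 200 genes, with under 25% of its UMIs from mitochondrial genes. It also had to hold at least 10 UMIs of Col1a1, Col1a2 and Col3a1 in sum, at least 2 of Dcn and Sparc in sum, 0 of the leukocyte gene Ptprc and at most 2 of the epithelial gene Epcam. The members were thus chosen by measured UMIs of these genes, which serve below as a description only. These limits found 143 of the 93871 tumor barcodes that passed the barcode filters, out of 118892 in the whole series, and 3 barcodes in adjacent mucosa. They are called collagen-gated cells here, because the data went only part of the way with the name fibroblast: 32 of the 143 carried pericyte transcripts.

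The libraries came from 3 C57BL/6J mice that were all ApcMin/+; p16cis/cis, a genotype that joins the Min mutation of the Wnt pathway gene Apc with an epimutation of p16, and all were on the supplemented diet, which adds choline, betaine, folic acid and vitamin B12. Mouse A (24 weeks) gave tumors 5 to 8 and mucosa 2, mouse B (23 weeks) tumors 9 and 10 and mucosa 3, and mouse C (20 weeks) tumors 1 to 4 and mucosa 1, so that 10 tumors stood against 3 mucosa libraries. Every mouse carried the same alleles and ate the same diet, and therefore no comparison of genotype or diet can be made, and tumors of a mouse are not separate animals. Tumors were dispersed with an enzymatic tumor dissociation kit and mucosa with EDTA followed by TrypLE, so tissue and dissociation cannot be told apart in any comparison below.

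Fibroblasts build the interstitial matrix of the colon, made of fibrillar collagens and small proteoglycans, and they set the balance of Wnt and BMP signals along the crypt through secreted ligands and antagonists. Fibroblasts near the crypt base are known for Grem1, R-spondins and Cd34, those near the luminal surface for BMPs, and pericytes wrap capillaries and carry Rgs5 and Notch3. In colon tumors such cells are known as cancer-associated fibroblasts, which secrete matrix, proteases and chemokines.

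The promoters of 2 collagen genes shared by the gated cells, and of Acta2 and Rgs5, a contractile and a pericyte gene that were high in the pericyte-like group described below, are given as the 250 bases before the start of the gene (RefSeq, GRCm38.p6, read on the gene's strand from 5′ to 3′; 200 of 301 list genes matched a window). Capitals mark the letters CCAAT or, on the other strand, ATTGG, and the letters TATAAA on the gene's strand.
Col1a2: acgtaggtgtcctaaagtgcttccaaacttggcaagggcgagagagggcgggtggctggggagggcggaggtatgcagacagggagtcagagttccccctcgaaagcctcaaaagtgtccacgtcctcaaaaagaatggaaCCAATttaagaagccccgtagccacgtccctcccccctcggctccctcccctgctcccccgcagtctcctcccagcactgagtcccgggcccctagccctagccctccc
Col3a1: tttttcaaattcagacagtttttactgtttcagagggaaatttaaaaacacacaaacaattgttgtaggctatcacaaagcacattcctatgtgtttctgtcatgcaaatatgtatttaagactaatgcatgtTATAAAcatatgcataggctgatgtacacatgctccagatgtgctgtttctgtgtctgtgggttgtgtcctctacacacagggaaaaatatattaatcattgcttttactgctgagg
Acta2: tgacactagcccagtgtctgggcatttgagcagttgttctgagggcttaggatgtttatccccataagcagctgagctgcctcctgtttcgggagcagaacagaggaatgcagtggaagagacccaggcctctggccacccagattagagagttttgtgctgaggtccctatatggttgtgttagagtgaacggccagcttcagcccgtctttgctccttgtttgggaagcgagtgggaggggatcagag
Rgs5: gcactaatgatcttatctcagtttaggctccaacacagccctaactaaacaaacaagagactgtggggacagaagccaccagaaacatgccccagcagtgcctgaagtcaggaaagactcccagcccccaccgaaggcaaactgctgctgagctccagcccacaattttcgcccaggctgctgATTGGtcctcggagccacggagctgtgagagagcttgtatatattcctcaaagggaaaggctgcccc

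These windows lie at chr6:4505368-4505617 (plus strand) for Col1a2, chr1:45311288-45311537 (plus) for Col3a1, chr19:34255374-34255623 (minus) for Acta2 and chr1:169655251-169655500 (plus) for Rgs5. CCAAT on either strand occurs in 33.8% of the 32851 promoter windows of this length and TATAAA in 7.59%, so the matches in Col1a2, Col3a1 and Rgs5 describe letters and no binding site. The Col3a1 window holds 0 CpG dinucleotides, the Col1a2 window 11 and the Acta2 and Rgs5 windows 4 each, beside a median of 6 over all windows. DNA methylation was not measured in these libraries.

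Each library held 57221300 to 116133079 UMIs. A gated cell held a median of 11431 UMIs (972 to 35250), and 8 of the 143 were called doublets. Just inside the collagen limit, 5 barcodes had 10 to 14 collagen UMIs, with 972 to 17851 UMIs in all and a median of 5756. Just outside it, 10 barcodes met all other limits with 5 to 9 collagen UMIs and a median depth of 3496.5. The collagen, Dcn and Sparc limits alone were met by 164 tumor barcodes, of which 16 held a Ptprc UMI and 6 held over 2 Epcam UMIs. Pairs of libraries shared 10 to 39 barcodes (median 21), and 0 members had a barcode that was a member in another tumor. The sex labels differ among libraries of mouse A and of mouse C, while all 13 libraries carried RNA of Y-linked genes (105 to 129 CPM, counts scaled to a library total of 1000000, in sum over Ddx3y, Eif2s3y, Kdm5d and Uty) and at most 0.134 of Xist, so the sex labels were not used.

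Collagen-gated cells were rare in every tumor, and tumor 5 stood apart. Tumors 1 to 4 of mouse C held 19, 10, 3 and 2 of them, tumors 5 to 8 of mouse A 61, 6, 16 and 5, and tumors 9 and 10 of mouse B 14 and 7. As a share of the barcodes that passed, this was 0.0204% in the lowest tumor (tumor 4), a median of 0.0935% and 0.635% in the highest (tumor 5, 95% exact binomial interval 0.486% to 0.814%). The next highest, tumor 1, was at 0.176% (0.106% to 0.274%), so its interval does not reach that of tumor 5. Tumor 5 alone supplied 42.7% of all members and 82 came from the other 9 tumors. Such intervals cover counting error only. Mouse means were 0.227% in A, 0.124% in B and 0.0823% in C, and the mice did not differ beyond the spread among their tumors (F = 0.626, p = 0.655, exact permutation test over 3150 arrangements of 10 tumors). Without tumor 5 the mean of mouse A was 0.0914%, below that of mouse B, and F was 0.313 (exact permutation p = 0.721). F ran from 0.250 without mouse C to 1.07 without tumor 6 when libraries or mice were left out in turn, with an exact permutation p of 0.417 to 0.884. Besides tumors 5 and 6 and mouse C, leaving out tumor 3 (0.410), tumor 4 (0.383), tumor 8 (1.03) or mouse B (1.04) moved F by over 1.5 times.

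**Figure D1:**
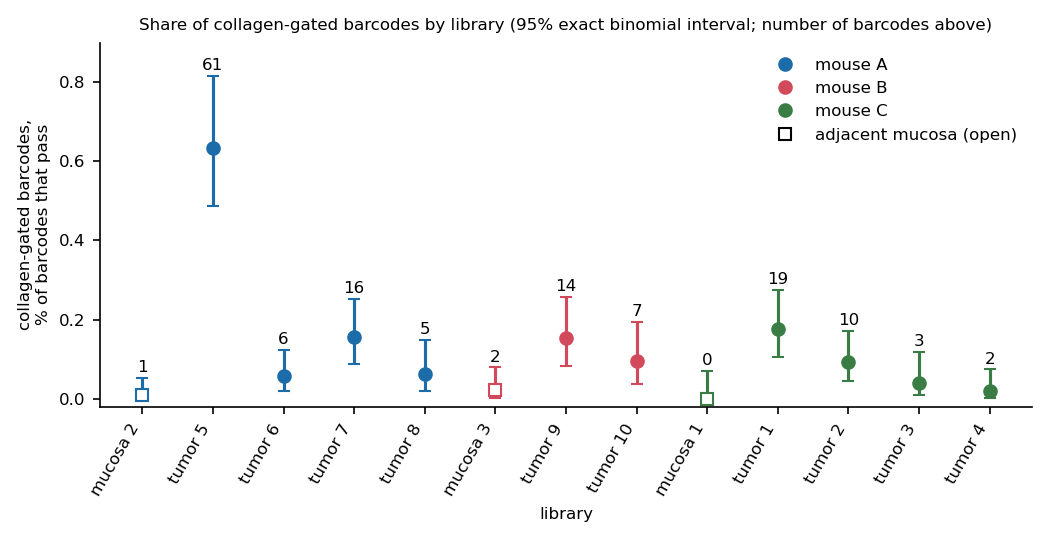
Share of barcodes that pass the barcode filters and meet the collagen gate, in percent, for each of 13 libraries ordered by mouse, with the 95% exact binomial interval as a bar and the number of gated barcodes above it. Filled circles are tumors and open squares are mucosa. Tumor 5 is at 0.635%, above all others, and the mucosa libraries hold 0, 1 and 2 gated barcodes.

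The same gate found 0 barcodes in mucosa 1, which allows a share of up to 0.0578% by a floor of 3 counts and 0.0711% by the exact 95% interval, 1 in mucosa 2 (0.00936%) and 2 in mucosa 3 (0.0219%). The mean of mouse means was 0.144% ± 0.0747 (SD, n = 3 mice) in tumors and 0.0104% ± 0.0110 in mucosa. The share was higher in all 10 tumors than in the mucosa of their own mouse, but for the 4 tumors of mouse C that mucosa had a count of 0, and tumors 3 (0.0404%) and 4 (0.0204%) were below the share that this count allows. The mean difference of 0.134 percentage points did not pass the exact two-sided permutation test within mice (p = 0.2 over 75 assignments, of which the smallest possible is 0.0133). Without tumor 5 the difference was 0.0887 points (exact permutation p = 0.0333). With members limited to at most 2 myeloid UMIs, the tumor share was 0.0916% and the difference 0.0812 points (exact permutation p = 0.04). Endothelium-gated barcodes (at least 3 UMIs of Cdh5, Pecam1 and Plvap in sum with at least 1 of Cdh5, 0 Ptprc, at most 2 Epcam and under 10 collagen UMIs) numbered 183 in tumors and 0 in mucosa. Mucosa also held 5 barcodes with at least 20 Dcn UMIs, 0 Ptprc and at most 2 Epcam that fell outside the gate with 4 to 8 collagen UMIs, beside its 3 gated ones. In tumors 94 gated barcodes had that much Dcn and 10 barcodes outside the gate did, with 0 to 5 collagen UMIs.

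The labels were then checked against markers, and the gated cells were found to hold several kinds of stromal cell. Of all 143, 100 had at least 3 UMIs of the fibroblast genes Pdgfra, Lum and Sfrp1 in sum, 32 had at least 3 of the pericyte genes Rgs5, Notch3 and Higd1b, 1 had both and 12 had neither. The pericyte sum was reached by 13 of 61 members in tumor 5, which include the 1 with both, by 5 of 6 in tumor 6, 3 of 5 in tumor 8, 4 of 14 in tumor 9, 5 of 7 in tumor 10 and 2 of 10 in tumor 2, and by no member of tumors 1, 3, 4 and 7. Rgs5 was detected in 34 members and Pdgfra in 92, and 3 held both. Of the 32 with pericyte genes, 9 also had at least 3 UMIs of the endothelial genes Cdh5, Pecam1 and Kdr. Without the 32 cells the mean share was 0.106% in tumors and the difference from mucosa 0.0956 percentage points (exact permutation p = 0.213).

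Hierarchical clustering of the 143 gave 5 groups, whose genes are described without a test because they formed the groups. Group 1 (46 cells, 27 of them from tumor 5) had the secreted Wnt antagonist Sfrp4 at 1290 CPM, Cilp at 713, the adventitial marker Pi16 at 972 and the cytokine gene Il33 at 428, beside 19.5, 13.7, 38.1 and 21.5 in the other members. Group 2 (45 cells from 7 tumors) had the B cell chemokine Cxcl13 at 2878, the metalloprotease-like Adamdec1 at 2505 and Sfrp2 at 614, beside 15.9, 177 and 65.2. In group 2, Cxcl13 was detected in 23 cells, Adamdec1 in 44 and Sfrp2 in 31. The members of tumor 7 held 1027 Cxcl13 UMIs, beside 63, 139, 61 and 11 in tumors 1, 2, 5 and 9. Bmp4 was at 576 and the EGF family ligand Ereg at 1075 in group 2, and at 52.0 and 120 in group 1. Pi16 was detected in 45 members and Adamdec1 in 62, with 8 holding both.

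Group 3 (30 cells from 6 tumors) was pericyte-like: Rgs5 was detected in all 30 at 9368 CPM, Notch3 in 30, Mcam in 30 and Higd1b in 22. It also had Acta2 at 5060, Myh11 at 1013 and the basement membrane collagen Col4a1 at 3915, while Pdgfra was at 0 and Lum at 2.50. Its Col3a1 level of 1750 was the lowest of the groups. Group 4 (12 cells) was shallower, with a median of 4186 UMIs beside 10028 to 14778.5 in groups 1 to 3, and had Pdgfra at 1075, Bmp4 at 967 and Bmp7 at 169. Group 5 (10 cells from 6 tumors, median 6864 UMIs) was led by the collagenase Mmp13 at 8653 and the stromelysin Mmp10 at 6770, but each was detected in 4 of its 10 cells, and Sfrp1 was at 0 there.

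**Figure D2:**
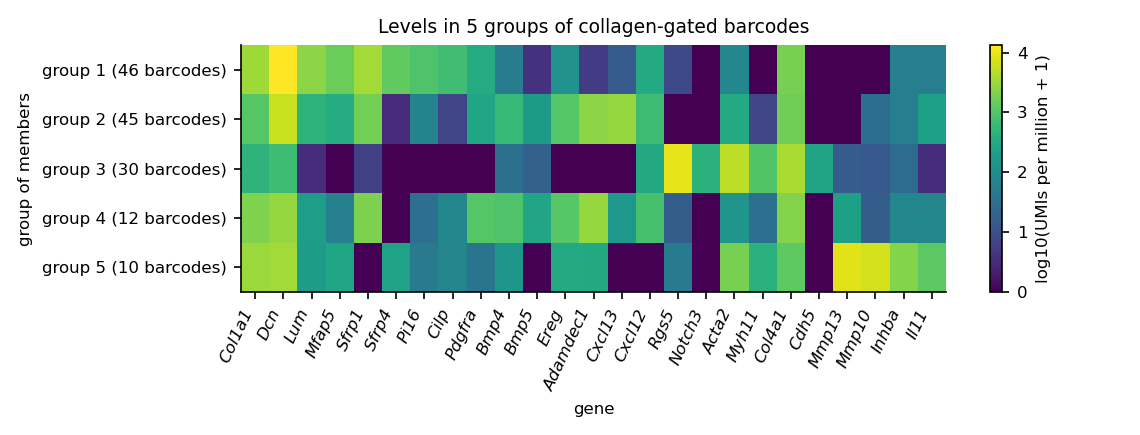
Level of 25 genes in the summed UMIs of each of 5 groups of collagen-gated cells, as log10 of CPM plus 1 in color. Group 3 stands out by Rgs5 (9368 CPM), Notch3 and Myh11 and by Pdgfra at 0, group 2 by Adamdec1 and Cxcl13 and group 1 by Sfrp4, Pi16 and Cilp.

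Levels below are CPM in the summed gated cells of a tumor, given for the 5 tumors with at least 10 members (tumors 1, 2, 5, 7 and 9, in that order, with 120 members) and as a mean of mouse means ± SD over 3 mice, with tumor 9 alone for mouse B. Since the gate chose the cells, a level set beside other barcodes is a description. As background for such ratios, 11.8% of the 12442 genes with at least 1 CPM in the gated cells were at least 10-fold above the other barcodes of the same tumors, and 12.4% had a mean of at least 100 CPM. Levels are compared only within a gene, as capture differs between genes.

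The genes of the gate are given first, as a description. Col3a1, a fibrillar collagen of loose connective tissue, was at 6826, 6469, 9489, 7385 and 6210 CPM (7098 ± 1180), beside 3.49 in other barcodes. Col1a2 was at 2253, 2457, 3688, 1889 and 2783 (2642 ± 249) and Col1a1 at 1398, 1110, 2535, 1204 and 2670 (1931 ± 710). Dcn, which encodes the collagen-binding proteoglycan decorin, was at 8789, 5470, 8321, 7112 and 8817 (7887 ± 857). Sparc, a matricellular glycoprotein, was at 4596, 5216, 7109, 3144 and 5421 (5151 ± 259), and reached 2664 in endothelium-gated barcodes too. Tumor 5 was the highest of the 5 for Col3a1, Col1a2 and Sparc, and tumor 9 for Col1a1 and Dcn, by a small margin.

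Over the 10 tumors together, the gated cells held most of the collagen, Dcn and Sparc RNA that chose them, but not in every tumor. Of Col3a1 they held 171 of 478 UMIs in tumor 4 and 153 of 634 in tumor 6. Of Dcn they held 363 of 915 in tumor 4, 118 of 635 in tumor 6 and 389 of 992 in tumor 10. Tumor 5 alone gave 7824 of the 13477 gated Col3a1 UMIs. With 0.230% of all tumor UMIs, they carried 84.5% of the Col3a1 UMIs, 82.1% of Col1a2, 80.3% of Col1a1, 77.8% of Dcn and 58.7% of Sparc. Over the 10 fibroblast markers the median was 81.5% and over 17 collagens 75.6%, beside 0.299% over all genes with at least 1 CPM in the gated cells. The fibroblast markers include Col1a1, Col3a1, Dcn and Sparc, and the collagens include Col1a1, Col1a2 and Col3a1. The gate thus fixed part of both medians, which are a description only. Leukocyte-gated barcodes (at least 2 Ptprc UMIs, 0 Epcam) held 1.03% of Col3a1 and epithelium-gated ones (at least 3 Epcam UMIs, 0 Ptprc) 0.345%, but both gates allowed at most 2 collagen UMIs, so these shares are limited by their definition.

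All 17 collagens of the list, those of the gate included, were at 100 CPM or more and at least 10-fold above other barcodes. Among those the gate did not use, Col4a1 (basement membrane) was at 911, 1522, 2304, 2239 and 2051, and Col4a2 had a mean of 932 ± 121. Members held 23.8% of the Col4a1 UMIs of the tumors. Col6a1, Col6a2 and Col6a3, the chains of beaded-filament collagen, were at 622 ± 23.8, 367 ± 44.5 and 470 ± 138. Col6a3 ranged from 185 in tumor 7 to 874 in tumor 5. Col18a1, the source of endostatin, was at 835 ± 58.0 and was low in group 1 (99.8) beside 1915 in group 3.

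Of 25 other matrix proteins and crosslinkers, 23 were at 100 CPM or more and 22 at least 10-fold above other barcodes. Bgn (biglycan) was at 2466, 2140, 2656, 1745 and 2430 (2311 ± 115). Fn1 (fibronectin) had a mean of 1445 ± 368, but members held only 1.24% of its tumor UMIs, so most of it lay in other cells. Lum (lumican) was at 1040, 888, 1602, 504 and 1117. Postn (periostin), a marker of matrix-rich cancer-associated fibroblasts, was at 1370, 1934, 1282, 633 and 442 (1017 ± 607). Both tumors of mouse C were above tumors 7 and 9, but tumor 5 was close to tumor 1. Postn did not pass the test between mice described below (edgeR adjusted p = 0.862). Of the 10 matrix cancer-associated markers, Postn included, 6 were at 100 CPM or more and 9 at least 10-fold above other barcodes. They were uneven: Acta2 and Tagln, which are contractile markers too, were detected in 67 and 72 members. Fap, a protease of activated fibroblasts, was at 7.90 ± 2.45 and detected in 17 cells, Cthrc1 in 10 and Lrrc15 in 1.

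With the genes of the gate left out, the 20 genes at 100 CPM or more with the highest ratio to other barcodes included Col6a1, Col6a2, Col6a3, Col5a1, Postn, Tnxb, Aspn, Efemp1, Lama2 and Loxl1. The others were Scn7a, C1qtnf3, Clec3b, the transcription factor gene Tcf21, Sfrp1, the guidance ligand Slit3, the serine protease inhibitors Serpina3m and Serpina3n, the chemerin gene Rarres2 and the eosinophil chemokine Ccl11. Ratios ran from 1648 for Col6a1 to 5158 for Scn7a, a sodium channel gene at 145, 270, 70.3, 170 and 101 CPM. Serpina3n was at 2695, 2061, 2210, 6633 and 2865 (3222 ± 1067), with tumor 7 far above the other 4. Clec3b was at 1085 and 1142 in the tumors of mouse C and at 427 to 494 in the other 3. No gene passed the edgeR test between mice (below).

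Among 16 matrix proteases and inhibitors, 12 were at 100 or more. The metalloproteinase inhibitors Timp3, Timp1 and Timp2 were at 1051 ± 293, 748 ± 499 and 682 ± 229, and Mmp2, a gelatinase, was at 542, 301, 740, 443 and 694. Timp1 ranged from 159 in tumor 2 to 1505 in tumor 5. Mmp3, Mmp10 and Mmp13 were patchy: tumor 2 had 0 of each, and in tumors 1, 5, 7 and 9 Mmp13 was at 1465, 358, 777 and 56.8. Mmp13 was found in 6 members and Mmp10 in 8, of which 6 had both. Members held 63.7% of the Mmp3 UMIs of the tumors but 4.13% of Mmp13.

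**Figure D3:**
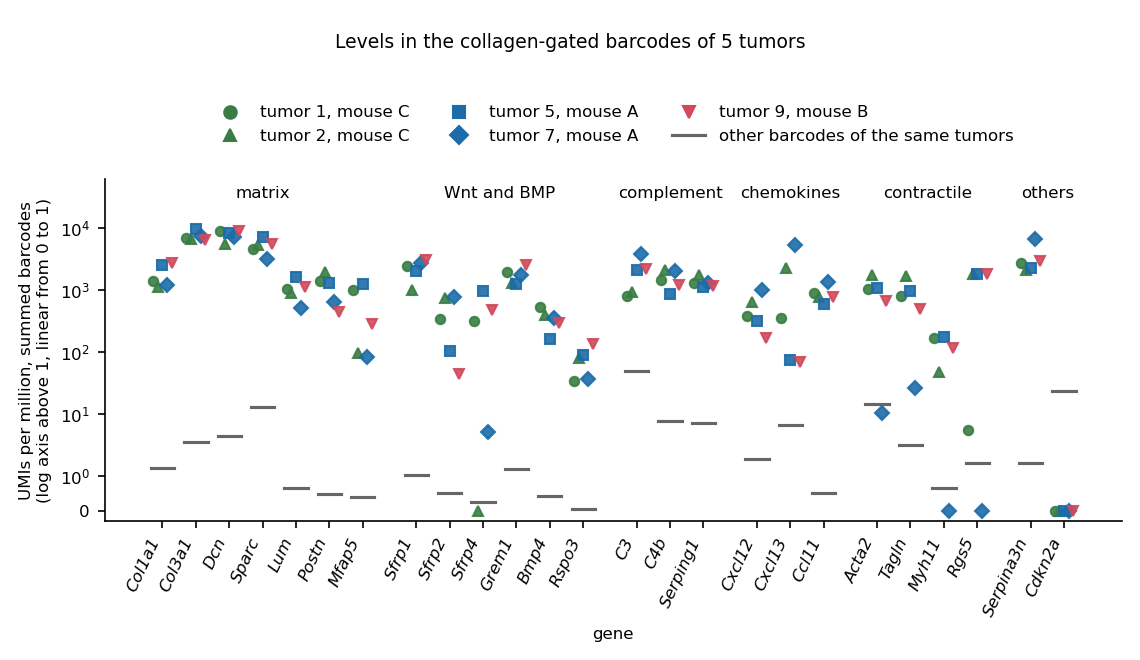
Level of 25 genes in the collagen-gated cells of 5 tumors, in CPM on an axis that is logarithmic above 1 and linear from 0 to 1. Symbols are tumors, colored by mouse, and grey lines are the other barcodes of the same tumors. Sfrp4, Cxcl13, Acta2 and Rgs5 spread widely between tumors, with tumor 7 at 10.3 for Acta2 and 0 for Rgs5.

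The Wnt list, with ligands, R-spondins and inhibitors, had 5 of 16 genes at 100 or more and 12 at least 10-fold above other barcodes. The secreted frizzled-related inhibitor Sfrp1 was at 2443, 999, 1974, 2661 and 3029 (2356 ± 655) and was detected in 71.3% of 143 members. Members, and at most 500 barcodes per tumor from each of the other 2 classes, were thinned to 3000 UMIs, leaving out shallower cells. Sfrp1 was then detected in 64.0% of 139 members, beside 0.0421% of 4745 epithelium-gated and 0.0292% of 3424 leukocyte-gated barcodes. Sfrp4 was uneven at 313, 0, 962, 5.15 and 480 (373 ± 188), with 793 of its 937 member UMIs in tumor 5. Of the 34 cells with Sfrp4, 32 also had Sfrp1. Sfrp2, of the same family, was at 335, 729, 103, 762 and 44.2, highest in tumors 2 and 7, where Sfrp4 was lowest. Of the ligands, Wnt4 was at 165 ± 84.1, Wnt5a at 100 ± 39.6 and Wnt2 at 54.3 ± 33.5. The R-spondin Rspo3, an amplifier of Wnt signals for crypt stem cells, was at 33.5, 79.3, 88.5, 36.0 and 133, and Rspo2 was at 0 in every tumor.

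Among BMP and TGF-beta genes, 6 of 17 were at 100 or more and 10 at least 10-fold above other barcodes. Grem1, which binds and blocks BMPs, was at 1951, 1284, 1253, 1734 and 2474 (1862 ± 534). Fstl1, a follistatin-like glycoprotein, was at 1224 ± 263 and detected in 141 members. The ligand Bmp4 was at 520, 396, 163, 355 and 290, lowest in tumor 5. Grem1 was detected in 84 members, Bmp4 in 85 and both in 63. Whether this overlap exceeds what these counts alone would give was not tested. Tgfb1 was at 63.7 ± 8.01 beside 125 in other barcodes, and Tgfb2 at 110 ± 16.1 beside 0.725.

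Of 17 growth factor genes measured, 8 were at 100 or more and 11 at least 10-fold above other barcodes. Igf1 was at 604, 602, 694, 437 and 757 in tumors 1, 2, 5, 7 and 9. Ereg (epiregulin) was at 425, 507, 332, 1045 and 417 (524 ± 145), and members held 39.1% of its tumor UMIs. Ccn2, a matricellular growth factor, was at 1135, 285, 313, 5.15 and 429, with tumor 7 near 0. The fibroblast growth factor genes Fgf7 (140 ± 42.6) and Fgf10 (94.9 ± 9.06) had 61.4% and 80.3% of their tumor UMIs in members.

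Complement genes had 7 of 8 at 100 or more and 7 at least 10-fold above other barcodes. C3, the central component, was at 788, 935, 2065, 3777 and 2121 (1968 ± 1038). C4b was at 1426, 2061, 863, 2022 and 1174 (1453 ± 285), and the C1 inhibitor gene Serping1 at 1297, 1744, 1115, 1307 and 1142 (1291 ± 202). Both tumors of mouse C were below the other 3 for C3, a pattern that did not pass the test between mice (below). Of the complement of the tumors, members held 66.2% of C1s1 but 9.49% of C3.

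Chemokines had 11 of 16 genes at 100 or more, but only 6 at least 10-fold above other barcodes. Ccl11, the eosinophil chemoattractant eotaxin, was at 900, 761, 582, 1348 and 751 (849 ± 108), with 79.1% of its tumor UMIs in members. Cxcl13, which draws B cells, was at 352, 2204, 74.0, 5285 and 69.4 (1342 ± 1306), so that tumors 2 and 7 stood above the other 3. It was detected in 30 cells, of which 28 also had Adamdec1. Cxcl12, which binds Cxcr4, was at 375, 634, 312, 993 and 164 (440 ± 250). Ccl2, a monocyte chemoattractant, was at 403, 15.9, 706, 221 and 562. The neutrophil chemokine Cxcl2 was at 115 in members and at 3550 in other barcodes.

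Cytokine and prostaglandin genes had 3 of 16 at 100 or more and 6 at least 10-fold above other barcodes. Il11 was at 218, 95.1, 143, 190 and 271 (198 ± 63.5), and members held 24.5% of its tumor UMIs. Il33 was at 101, 0, 199, 628 and 75.7, and Ptges at 115 ± 52.1. Il6 was detected in 16 members and Csf2 in 0. Among receptors, 13 of 16 were at 100 or more, with Tgfbr2 at 448 ± 82.1, Il6st at 354 ± 121 and Tgfbr3 at 290 ± 128. Pdgfra was at 157, 95.1, 312, 401 and 208 and Pdgfrb at 83.9, 285, 143, 77.2 and 347.

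Contractile and pericyte genes ranged widely over the tumors. Acta2 (smooth muscle actin) was at 1029, 1744, 1064, 10.3 and 663 and Tagln at 794, 1681, 962, 25.7 and 492. Rgs5, a regulator of G protein signaling, was at 5.59, 1776, 1774, 0 and 1805. In tumor 7 the pericyte genes Rgs5, Notch3 and Higd1b were at 0, but Abcc9 was at 77.2, Kcnj8 at 41.2 and Pdgfrb at 77.2. Tumor 1 had Notch3 and Higd1b at 0 as well, with 1 Rgs5 UMI. The 7 pericyte markers together summed to 201 to 2922 CPM over the 5 tumors, beside 2.63 to 4.99 in other barcodes. Of the 67 members with Acta2, 53 had Tagln and 30 had Rgs5. All 9 contractile and all 7 pericyte markers were at least 10-fold above other barcodes. Leaving out the 32 cells with pericyte genes took 2 of the 10 members of tumor 2, which then fell below the limit of 10. The means without these cells, and so without tumor 2, were 2.37 for Rgs5, 1221 for Lum and 9452 for Dcn. The low Rgs5 follows from the removal, and these means do not cover the same 5 tumors as those above.

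Marker lists of fibroblast states were then counted. Of the crypt-base and adventitial list 8 of 10 genes were at 100 or more, of the inflammatory list 6 of 11, of the matrix cancer-associated list 6 of 10, of the villus-tip and PDGFRA-high list 2 of 9 and of the antigen-presenting list 1 of 6. The last was Saa3, an acute-phase gene, at 559, 0, 475, 8501 and 1306, while Cd74 and the class II genes H2-Aa, H2-Ab1 and H2-Eb1 were at 9.12 to 43.0 beside 1007 to 3576 in other barcodes. From the crypt-base and adventitial list, Ly6a was at 1058 ± 299 and Igfbp6 at 762 ± 123. Proliferation genes were nearly absent: Mki67 was detected in 2 of 143 members and Top2a in 5.

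Marker lists of other cells were summed in the members and in the other barcodes. The 9 pan-leukocyte markers summed to 47.6 to 177 CPM over the 5 tumors, beside 6583 to 9743 in other barcodes, with Ptprc at 0 by the gate. The 9 epithelial markers summed to 11.2 to 119, beside 4143 to 7114, and the 9 macrophage markers to 41.2 to 162, beside 4672 to 7635. The 8 neutrophil markers summed to 183 to 567.6, beside 24825 to 39678, and the 7 B and plasma cell markers to 222 to 808, beside 32207 to 68377, with 1 gene of each list at 100 or more. The 9 endothelial markers summed to 10.3 to 414, beside 25.7 to 64.9, so that tumor 5, the highest, was above the other barcodes. The 7 glial markers summed to 15.4 to 190, beside 2.95 to 11.5. Most of this was the small heat shock protein gene Cryab, at 190, 47.6, 94.6, 15.4 and 88.4 beside 4.53, while S100b was at 2.43 in tumor 5 and at 0 in the other 4. Sox10, Gfap and Cdh19 were at 0. The plasma cell gene Igkc was detected in 61.9% of members thinned to 3000 UMIs, beside 54.6% of epithelium-gated and 64.7% of leukocyte-gated barcodes, and the part of free RNA in these shares was not tested. Immediate early and stress genes, which cell dissociation is known to induce, had 12 of 15 at 100 or more and 0 at least 10-fold above other barcodes; Fos was at 749, 301, 1004, 1359 and 1275 beside 531, and its part in the other levels was not tested.

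Genes whose promoters the study followed by methylation were measured in the same cells. Besides Sfrp1 and Sfrp4, given above, Mgmt, a DNA repair gene, was at 8.80 ± 3.56 beside 4.94 in other barcodes, with 13 UMIs in all members. Gata4 had 0 UMIs. Cdkn2a, the locus of p16, had 1 UMI in the 143 members (0 in the 5 tumors above), beside 23.5 CPM in other barcodes. At 3000 UMIs a cell, 0 of 139 members had a Cdkn2a UMI and 8.77% of epithelium-gated barcodes did. The UMIs here do not tell p16 from the other transcript of the locus.

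Among the barcodes recovered, Sfrp1 RNA sat in different classes of barcode in tumors and in mucosa. In tumors, 3513 of 4132 Sfrp1 UMIs (85.0%) were in the 143 collagen-gated cells and 32 in 16828 epithelium-gated barcodes. By tumor, the gated cells held 437, 63, 154, 37, 1628, 9, 517, 53, 480 and 135 UMIs in tumors 1 to 10. Tumor 6 was the exception, as 98 of its 125 UMIs were in 1 barcode that met the collagen limit, held 3 Ptprc UMIs and was called a doublet. In mucosa, 1001 of 1052 Sfrp1 UMIs (95.2%) were in 16366 epithelium-gated barcodes and 0 in the 3 gated cells. Spread so thinly, no mucosa barcode had over 5 Sfrp1 UMIs. Mucosa gave only 3 gated cells and was dispersed by another method. The Sfrp1 of mucosa fibroblasts could therefore hardly be measured, and tissue and dissociation cannot be told apart here. Within epithelium-gated barcodes, Sfrp1 was at 0.915, 4.44 and 5.30 CPM in mucosa 1, 2 and 3 and at 0 to 0.409 (median 0.0701) in the 10 tumors, so the groups did not overlap. In the summed barcodes of whole libraries, 26.6% of genes were lower in every tumor than in every mucosa library. No such share is given for epithelium-gated sums, so how unusual the Sfrp1 values are there was not tested. The difference of means over mice was -3.43 CPM, with 10 of 10 tumors below the mucosa of their mouse (exact permutation within mice, p = 0.0133, the smallest that 75 assignments allow). Both epithelium-gated sets came from barcodes with at most 2 collagen UMIs, and free RNA was not removed. This comparison was chosen after the values were seen, and for Sfrp4 there was 0 UMI in mucosa.

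**Figure D4:**
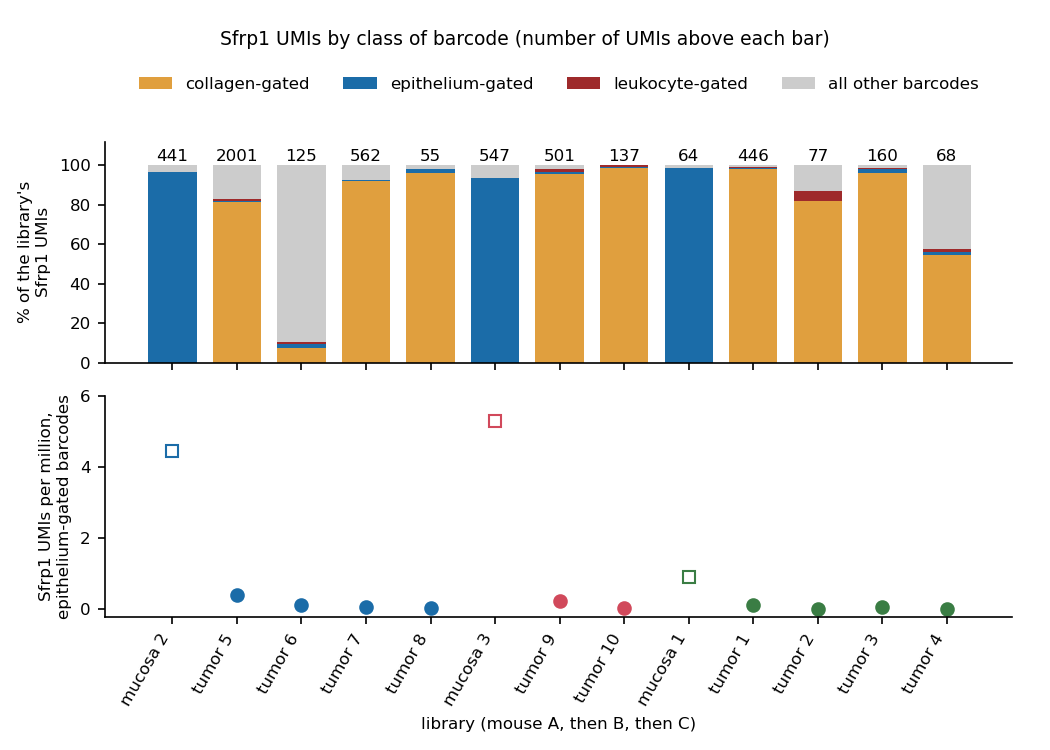
Upper panel, share of a library's Sfrp1 UMIs held by each class of barcode, in percent, with the number of Sfrp1 UMIs above each bar. Lower panel, Sfrp1 in the epithelium-gated barcodes of each library in CPM, with circles for tumors and open squares for mucosa, colored by mouse. Mucosa UMIs are in epithelium-gated barcodes and tumor UMIs in collagen-gated ones, save in tumor 6, where other barcodes held most.

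Whether gated cells differ between mice was tested on their summed UMIs in the 5 tumors, 2 each from mice A and C and 1 from mouse B, which was assumed to vary like the others. Of 4340 genes tested, 0 passed an adjusted p of 0.05 in edgeR (0% of genes), 238 (5.48%) had an unadjusted p under 0.05 and DESeq2 called 5. Of the 189 list genes tested, 0 passed and 30 had an unadjusted p under 0.05. C3 had an adjusted p of 0.841 in edgeR. The gene with the lowest p, Lbp (lipopolysaccharide binding protein), was at 95.04, 31.7, 201, 160 and 795 CPM, with the same adjusted p of 0.841 in edgeR. With 5 tumors this does not show that the mice were alike.

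List genes were also compared in the sums of all barcodes, which the gate did not choose. The collagen and fibroblast lists hold genes of the gate, so their counts and medians here are a description only. In such sums, fewer cells of a type and less RNA per cell cannot be told apart. In edgeR, 36.8% of 17843 genes were higher and 34.9% lower in tumors at an adjusted p of 0.05 (71.7% in either direction), so a call alone sets no gene apart, and the median log2 fold change was 0.02. Of the 17 collagens 16 were higher and 1 lower, of 24 other matrix genes 22 were higher and 0 lower, of 16 proteases and inhibitors 16 were higher, of 8 contractile markers 8, of 10 fibroblast markers 8 and of 7 pericyte markers 5 were higher. The lists had median log2 fold changes of 5.54 (collagens), 4.99 (matrix), 4.94 (proteases), 5.65 (contractile), 5.44 (fibroblast) and 2.22 (pericyte). The fibroblast state lists were mixed. Of 10 matrix cancer-associated genes 7 were higher and 3 lower, and of 10 crypt-base and adventitial genes 5 and 2. Of 9 villus-tip and PDGFRA-high genes 6 were higher and 2 lower. All 10 inflammatory genes and 4 of 6 antigen-presenting genes were higher. Other lists moved too, and their part in these values was not tested. All 15 immediate early and stress genes were higher (median 2.52), as were all 9 endothelial markers (median 4.49). The neutrophil and macrophage lists had medians of 8.13 and 6.25. Of the 6 T cell markers 0 were higher and 2 lower, with a median of -0.47, and 7 of 9 epithelial markers were lower.

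Col3a1 and Dcn are genes of the gate, so their values here are a description. Col3a1 had 6, 13 and 42 UMIs in mucosa 1, 2 and 3 and 335 to 8987 in tumors (median 659.5). This gives a log2 fold change of 6.66 (SE 1.41). Tumor 5 was the highest, at 114 CPM beside a tumor median of 10.3. All 10 tumors were above every mucosa library for Col3a1, as for 28.8% of all genes. With the gated cells taken out of all sums, mucosa included, the log2 fold change was 5.53. These sums still held collagen-rich tumor barcodes that the gate left out, 16 with a Ptprc UMI and 6 with over 2 Epcam UMIs. They are therefore not free of collagen-producing cells. Since the gate removes barcodes for their Col1a1, Col1a2, Col3a1, Dcn and Sparc UMIs, and mostly from tumors, a lower value follows from its construction, and values without gated cells are given as a description. In those sums 16 of 17 collagens were called higher, beside 36.7% of 17779 genes higher and 34.8% lower. Dcn had 157, 137 and 352 UMIs in mucosa and 214 to 8291 in tumors (log2 fold change 3.32, SE 1.04). Tumor 5 was the highest here too, at 105 CPM beside a tumor median of 13.9. Without gated cells, which held 77.8% of the Dcn UMIs of the tumors, the log2 fold change of Dcn was 1.65. In the same sums 6 of 10 fibroblast markers and 15 of 22 other matrix genes tested were called higher. Of 274 list genes tested in both, 8 were called higher only with the gated cells included (Dcn, Des, Ereg, Fbln1, Kcnj8, Ogn, Pcolce and Tnc) and 1, Pdgfrb, was called lower only without them.

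Of list genes past the threshold the 10 with the largest fitted fold changes were Rgs5, Inhba, Dkk2, Ptn, Grem1, Ptgs2, Mmp3, Emcn, Cxcl14 and Thbs2, all higher in tumors. For Rgs5, Grem1, Mmp3 and Emcn, at 0 in mucosa, the fitted value depends on the prior count, so their place in that order is not measured. Rgs5, Grem1 and Mmp3 had 0 UMIs in all mucosa libraries, and against a floor of 3 counts over the mucosa together were at least 637-, 409- and 171-fold higher in tumors. Without tumor 5 these bounds were 465, 266 and 68.6. Members held 77.1% of the Rgs5, 75.2% of the Grem1 and 63.7% of the Mmp3 UMIs of the tumors. Emcn, an endothelial sialomucin, was at 0 in mucosa too and at least 146-fold higher (152 without tumor 5), with 3.86% in members. The other 6 lay almost wholly outside the gated cells: members held 0.434% of Inhba (an activin subunit), 0.00864% of the Wnt inhibitor Dkk2, 0.204% of Ptn (pleiotrophin), 0.165% of Ptgs2 (an inducible prostaglandin synthase), 1.997% of the chemokine gene Cxcl14 and 0.928% of Thbs2. Those 6 are thus named for the summed tumors and hardly concern the gated cells.

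Some genes known from fibroblasts were lower in tumors or did not pass the test. Sfrp1 had 64, 441 and 547 UMIs in mucosa and 55 to 2001 in tumors (log2 fold change 0.66, SE 0.99, edgeR adjusted p = 0.565), and 4 of 10 tumors were above every mucosa library. With gated cells left out the estimate was -2.06 (edgeR adjusted p = 0.101) and without tumor 5 it was -0.078. The gated cells held 3513 of 4132 Sfrp1 UMIs in tumors and 0 of 1052 in mucosa. A lower estimate thus follows from leaving these cells out. Sfrp4 had 0 UMIs in mucosa and 0 to 907 in tumors, and its adjusted p was 0.064 in edgeR and 0.021 in DESeq2. Col8a1 (2447, 567 and 487 UMIs in mucosa, 21 to 630 in tumors, log2 fold change -2.99, SE 0.76, edgeR adjusted p = 0.0028) was lower. Of its mucosa UMIs 96.9% were in epithelium-gated barcodes, while members held 57.1% of those in tumors. Wnt5a was lower as well (-3.18, SE 0.88, edgeR adjusted p = 0.0052). Pdgfrb did not pass (-0.59, edgeR adjusted p = 0.235) and was at -1.51 in the sums without the gated cells. The gated cells had held 47.4% of its tumor UMIs but 1 of its 430 mucosa UMIs. A lower value thus follows from their removal and is a description. Of its mucosa UMIs 90.7% were in epithelium-gated barcodes. Of the methylation panel, Mgmt (-0.90) was lower and Cdkn2a (5.39) higher, with edgeR adjusted p of 0.0012 and 8.5e-07.

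**Figure D5:**
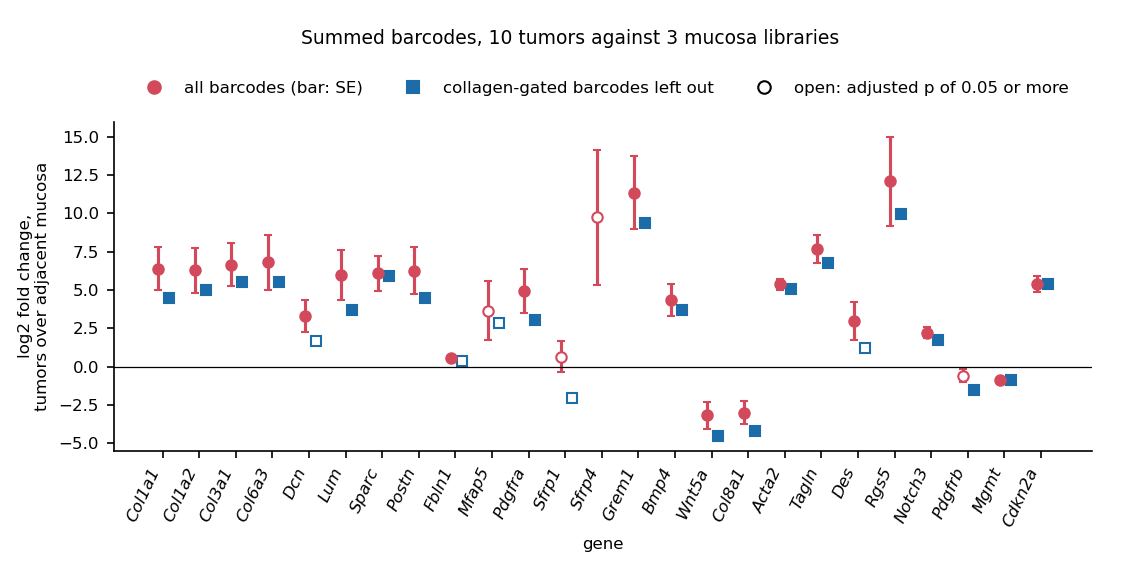
Log2 fold change of 25 genes, tumors over mucosa, from edgeR over 10 tumors and 3 mucosa libraries. Circles are the summed UMIs of all barcodes and squares those with collagen-gated cells left out. The squares still hold collagen-rich barcodes outside the gate. For Dcn and Sfrp1 a lower square follows from removing gated cells mostly from tumors. Bars are a standard error derived from the fold change and its F statistic. Open symbols have an adjusted p of 0.05 or more. Col1a1, Col1a2, Col3a1 and Col6a3 stay positive in both fits (6.66 and 5.53 for Col3a1), Col8a1 is at -2.99, Dcn moves from 3.32 to 1.65, and Sfrp1 moves from 0.66 to -2.06.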

How the data were processed

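Colon tumors and adjacent mucosa were profiled with 10x Genomics 3′ single-cell RNA sequencing, and the authors deposited UMI counts per gene and barcode made with Cell Ranger 6.0.0 on mm10, as the submitters' processing notes name it. Each library was used as deposited, with 32285 genes. Python 3.11.15 and R 4.3.3 were used.

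Barcodes were filtered and gated as the report states, and doublets were scored against simulated ones but kept. UMI counts were summed per library and class. Levels are CPM, the counts of a sum scaled to a total of 1000000. Shares were compared by exact permutation within mice, and sums with edgeR 4.0.16 (quasi-likelihood test, TMM, filterByExpr, Benjamini-Hochberg, threshold 0.05) after tests on simulated data, with DESeq2 1.42.0 as an alternative. The SE of a log2 fold change is its absolute value divided by the square root of its F statistic. Clustering used 1500 variable genes, 10 principal components and Ward linkage. Named genes are the highest of each list, the 20 leading genes by ratio at 100 CPM or more with gate genes left out, the study's methylation panel and, for summed barcodes, the 10 list genes of largest change. Sfrp1 in epithelium, the leaving out of cells with pericyte genes and named genes outside this rule were chosen after values were seen. Some list genes are not reported here.

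Members and gene lists were chosen with earlier results of these data known. Tumors and mucosa of a mouse share the animal, and deviations from group means correlated at 0.120, 0.0121 and 0.0974 in mice A, B and C. Tumors are separate samples of 3 mice, so p-values over tumors measure the spread between tumors. The gated sums hold 2 to 61 barcodes a tumor. Genes counted over near-identical copies, such as Serpina3m and Serpina3n, are uncertain.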

Additional observations from a re-analysis of the deposited data

Results flagged for a closer look

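The share of collagen-gated cells in tumor 5 (0.635% of barcodes that pass) lay far from the other 9 tumors by Dixon's test on 10 tumors. Among the 5 tumors with levels, Serpina3n in tumor 7 (6633 CPM) lay far from the other 4. These were 2 of 42 sets of tumors tested, and chance gives about 1 in 20.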

How the results depend on the processing

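Of the comparisons and counts recomputed, 163 kept their direction and side of the threshold (counts within 1.5 times), 3 moved, 2 gained a call and 2 lost one. The tumor share was 0.830% among barcodes with 0 Ptprc and 0 to 2 Epcam UMIs, a smaller denominator. The difference from mucosa was 0.0812 percentage points with at most 2 myeloid UMIs (exact permutation p = 0.04), and 0.0887 to 0.160 when libraries or mice were left out in turn (exact permutation p = 0.0333 to 0.267, the lowest without tumor 5). Without the pairing of tumors and mucosa by mouse (no replicate block) it was 0.138 (permutation p = 0.220). With mouse as a replicate block, edgeR called 6663 genes higher and 6409 lower, and 220 and 29 list genes, and with tumors summed per mouse 5771 and 5009, and 220 and 22. Summed per mouse with that block, Sfrp4 passed (edgeR adjusted p = 0.0046). Between mice, DESeq2 called 5 genes and edgeR without a filter on low counts 100, where the filtered test called 0; the cause was not tested. Sfrp1 in summed barcodes was -2.06 without the gated cells and ranged from -0.078 (without tumor 5) to 1.06 when libraries were left out. In epithelium-gated barcodes the Sfrp1 difference ranged from -4.72 to -2.57, and leaving out mouse A or C gave an exact permutation p of 0.0667, in a design with fewer assignments. For the single genes followed through the alternatives (29 in summed barcodes), 1257 values were as reported, 36 moved, 2 reversed, 2 gained a call and 1 lost it. Over all 274 list genes tested with and without the gated cells, 8 lost a call and 1 gained one. The bounds without tumor 5 were added after seeing the data. The test between mice was not run for a collagen sum of at least 20, without cells with pericyte genes, with at least 20 members, or without tumors 1, 2, 5 or 7 or mice A or C. With 2 to 61 gated cells a tumor, depth limits genes of a few UMIs.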
